A study of Mus musculus with 6 samples.

Results

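Accessible chromatin at 33 genes of the piRNA pathway was examined in peak lists from ATAC-seq, an assay whose transposase, Tn5, inserts sequencing adapters wherever chromatin is open. The genes were given as a fixed list of names. The list used no measured value, but it was chosen with earlier results of these data known. All 33 were found among the 21468 protein-coding genes that could be given a 5′ end. The samples were testis cells enriched in spermatogonia, the germ cells that divide by mitosis before meiosis, taken at Pnd 5 (postnatal day 5). 3 libraries came from Sirt7-/- mice (labelled S7KO), which lack the histone deacetylase SIRT7, and 3 from wild-type (WT) mice, each from 50000 cells. Both genotypes were of the 129S1/Sv strain per the study's methods, and the enrichment worked by letting somatic cells attach to a dish, so that some somatic cells can remain. Libraries are named by the replicate numbers 1, 2 and 4 of their titles, which serve as names only.

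piRNAs are small RNAs of the germline that guide PIWI proteins to the transcripts of transposons. PIWI proteins cut those transcripts in the cytoplasm, and in the nuclei of fetal male germ cells they direct DNA methylation to transposon copies. A later wave of piRNAs, made from its own loci, arises at meiosis, which spermatogonia of this age have not reached. The pathway needs PIWI proteins, Tudor proteins that bind their methylated arginines, enzymes that shape the piRNA ends, nuclear silencing factors and transcription regulators.

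A peak in these lists is a stretch of the genome that the authors' peak caller found enriched, with its position, a fold enrichment and a −log10 q-value. A promoter peak is the widest peak that reaches to within 1 kb of the outermost 5′ end of a gene in RefSeq. Its rank is its place in its own list when peaks are ordered by −log10 q, as a percentage from the top, so that a low rank is a strong peak. Ranks and widths describe peaks, and neither is a measure of the number of cut sites. The lists held 105754 to 133695 peaks, with the fewest in WT replicate 2. Read depth was not given. The largest q-value in any list was 0.0983. Sirt7 itself had a promoter peak in all 6 libraries, which gave no check of the genotype labels.

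The label of the samples was compared with marker genes. All 10 germ cell markers, among them Ddx4, Dazl and Zbtb16, had a promoter peak in all 6 libraries. So did all 6 Sertoli cell markers (Sox9, Amh, Wt1, Gata4, Cldn11, Dhh) and the 2 peritubular myoid markers (Acta2, Myh11). Of 6 Leydig and interstitial markers 2 had a peak in all 6 libraries, and of 2 endothelial markers 1. Of 3 macrophage and blood markers none had a peak in all 6, and Ptprc and Adgre1 had none in any. Of 19 somatic markers in all, 11 had a promoter peak in every library and 6 in none, and the number per library ran from 12 to 13. The part of somatic cells in the results below was not tested.

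Nearly all of the pathway's genes had an accessible promoter in both genotypes. Of the 33 genes, 32, 32 and 33 had a promoter peak in S7KO replicates 1, 2 and 4, and 32, 31 and 33 in WT replicates 1, 2 and 4. Over all protein-coding genes the share was 69.1% to 70.8% per library. In all 6 libraries together, 31 of the 33 genes had a promoter peak, against 68.1% of all genes. Within 3 kb of the 5′ end, 32 of 33 genes had a peak in all 6 libraries, against 74.0% of all genes. Genes best known for later stages of germ cell development, such as Piwil1, were among those with a peak. The 2 genes without a promoter peak in at least 1 library were Piwil2 and Tdrd6, and both had a peak farther into the gene in every library. For no gene of the pathway was a promoter peak present throughout 1 genotype (3 libraries) and absent throughout the other, a pattern that 0.0326% of all genes showed.

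The promoter peaks differed widely among the genes. The median width of a gene's peak over the 6 libraries had a median of 1261 bp over the 31 genes with a peak in every library, against 1420.5 bp over the 14630 such protein-coding genes. 11 of the 31 genes lay above that value. The median rank was 10.93% over the 31 genes and 7.696% over all genes, so peaks of the pathway were a little narrower and lay lower in their lists at the median. These are descriptions of a chosen list, and no test was made on them.

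**Figure D1:**
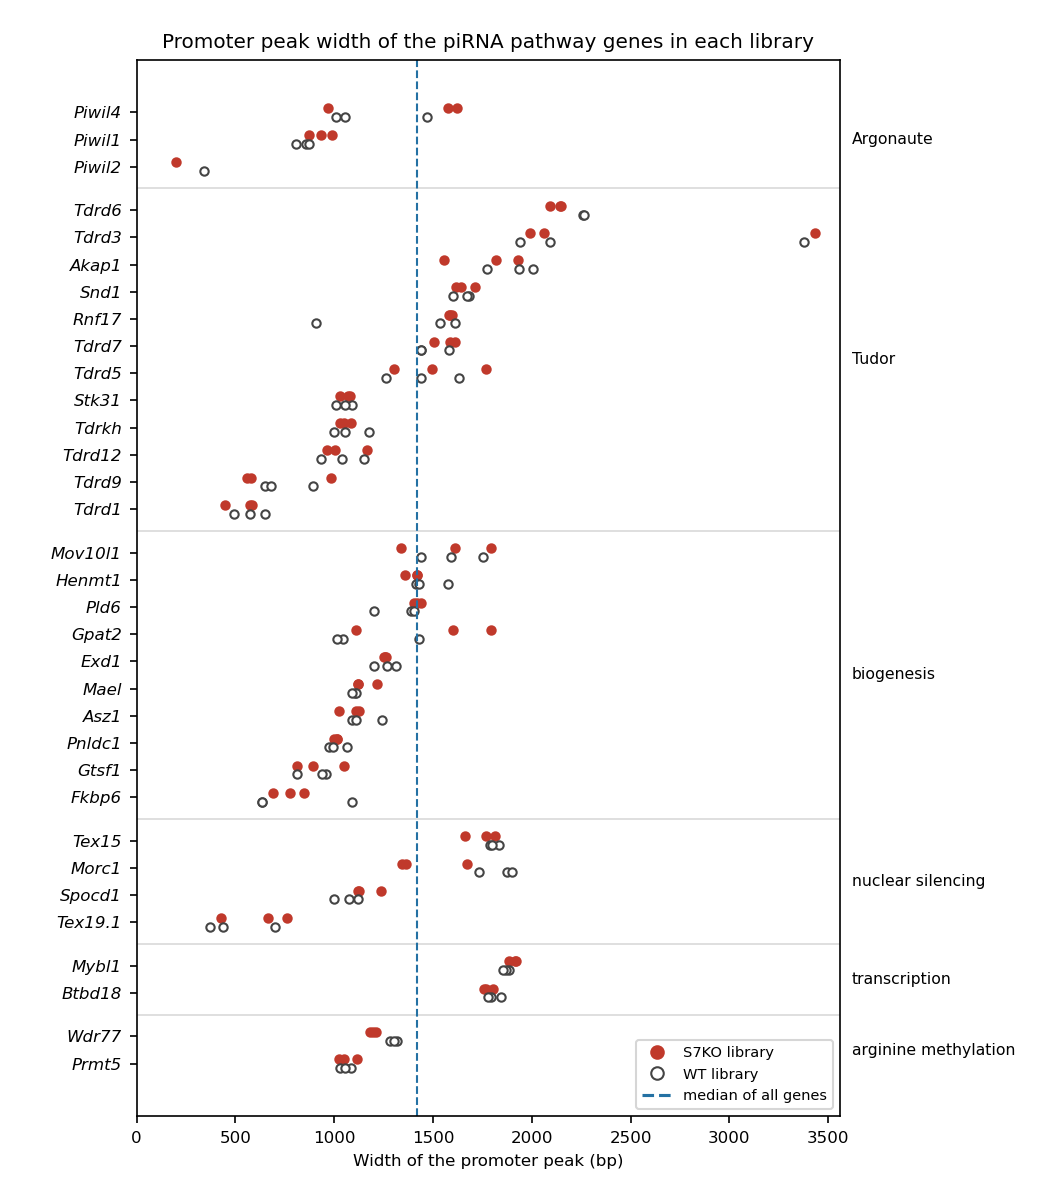
Width of the promoter peak in bp (horizontal axis) of each piRNA pathway gene, grouped by role, with filled points for the 3 S7KO libraries and open points for the 3 WT libraries. Points of both genotypes lie together for most genes, and the dashed line marks the median of all genes, 1420.5 bp. Morc1 and Wdr77 have all S7KO points to the left of the WT points, and Mybl1, Mael and Piwil1 have them to the right.

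The promoter sequences of the extremes are shown first, since the width of an accessible promoter can be set beside its CpG content. RefSeq promoter windows of GRCm38.p6, from 250 bases before to 50 bases after a start, were at hand for 25 of the 33 genes. They are from the reference genome, not from the strain of these mice. The 3 genes with the narrowest peaks among those 25 were Tex19.1, Tdrd1 and Tdrd9, with median widths of 551, 574 and 666 bp. Capitals mark the CpG dinucleotides, of which Tex19.1 had 16, Tdrd1 20 and Tdrd9 10.
Tex19.1, chr11:121145893-121146192, plus strand: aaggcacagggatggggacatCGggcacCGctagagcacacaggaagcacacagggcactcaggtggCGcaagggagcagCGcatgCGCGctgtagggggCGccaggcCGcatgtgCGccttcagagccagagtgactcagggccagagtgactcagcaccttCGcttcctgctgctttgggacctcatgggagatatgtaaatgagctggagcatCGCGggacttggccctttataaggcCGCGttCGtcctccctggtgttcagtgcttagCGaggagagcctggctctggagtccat
Tdrd1, chr19:56825959-56826258, plus strand: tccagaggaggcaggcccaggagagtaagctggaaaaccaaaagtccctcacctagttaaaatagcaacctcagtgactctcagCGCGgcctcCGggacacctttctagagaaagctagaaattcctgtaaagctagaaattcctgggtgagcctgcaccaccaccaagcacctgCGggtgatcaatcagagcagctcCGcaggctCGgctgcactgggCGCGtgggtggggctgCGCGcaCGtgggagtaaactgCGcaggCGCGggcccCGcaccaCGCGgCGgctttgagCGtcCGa
Tdrd9, chr12:111971309-111971608, plus strand: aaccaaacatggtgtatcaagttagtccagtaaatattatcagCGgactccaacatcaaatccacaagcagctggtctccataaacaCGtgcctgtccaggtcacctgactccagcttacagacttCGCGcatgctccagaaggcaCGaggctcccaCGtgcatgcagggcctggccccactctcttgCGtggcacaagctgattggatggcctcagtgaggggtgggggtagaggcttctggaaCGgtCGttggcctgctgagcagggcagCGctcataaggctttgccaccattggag

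The 3 genes with the widest peaks among the 25 were Tdrd3, Akap1 and Btbd18, with median widths of 2077, 1875.5 and 1787.5 bp. Their windows held 43, 40 and 23 CpG dinucleotides, again in capitals.
Tdrd3, chr14:87416333-87416632, plus strand: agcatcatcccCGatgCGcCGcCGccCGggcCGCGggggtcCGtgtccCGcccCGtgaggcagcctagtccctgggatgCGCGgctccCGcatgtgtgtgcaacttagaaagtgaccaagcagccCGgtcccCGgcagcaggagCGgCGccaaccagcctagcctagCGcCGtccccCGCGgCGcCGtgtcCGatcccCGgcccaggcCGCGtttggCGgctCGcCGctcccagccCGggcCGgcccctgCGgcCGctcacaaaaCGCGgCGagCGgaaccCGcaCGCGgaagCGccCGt
Akap1, chr11:88864537-88864836, minus strand: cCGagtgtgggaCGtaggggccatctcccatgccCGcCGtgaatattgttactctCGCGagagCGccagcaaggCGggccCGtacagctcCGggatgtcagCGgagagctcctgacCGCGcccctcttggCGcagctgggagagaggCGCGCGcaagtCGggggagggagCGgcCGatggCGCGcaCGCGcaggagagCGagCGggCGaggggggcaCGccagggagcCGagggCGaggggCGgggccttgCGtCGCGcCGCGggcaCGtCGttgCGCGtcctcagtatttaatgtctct
Btbd18, chr2:84658829-84659128, plus strand: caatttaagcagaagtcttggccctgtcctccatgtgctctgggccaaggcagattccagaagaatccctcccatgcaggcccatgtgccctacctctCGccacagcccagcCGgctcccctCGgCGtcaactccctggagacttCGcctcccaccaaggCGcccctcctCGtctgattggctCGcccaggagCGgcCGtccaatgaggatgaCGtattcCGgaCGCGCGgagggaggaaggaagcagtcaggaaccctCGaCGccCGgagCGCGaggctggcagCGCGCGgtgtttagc

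The ratio of observed to expected CpG was 0.575, 0.733 and 0.43 for the 3 narrow promoters and 1.03, 1.1 and 0.748 for the 3 wide ones. Over the 25 genes the ratio had a median of 0.748, against 0.756 over the 11402 genes whose window lay under a peak in all 6 libraries and 0.577 over all 17492 genes with a window. The G+C share had a median of 60.3% in the pathway and 61.3% in the genes under a peak. Across the 25 genes, the CpG ratio and the median width had a Spearman rho of 0.39 and a Pearson r of 0.37, and across the 11702 genes with a window and a promoter peak in every library these were 0.22 and 0.2. These are descriptions across genes that share the same 6 libraries, and genes are not independent replicates. For Fkbp6 the width is that of the promoter peak, which did not cover the window of its RefSeq start. Tdrd7 stood apart in the plot of CpG content, with a ratio of 0.234 and a width of 1544.5 bp.

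**Figure D2:**
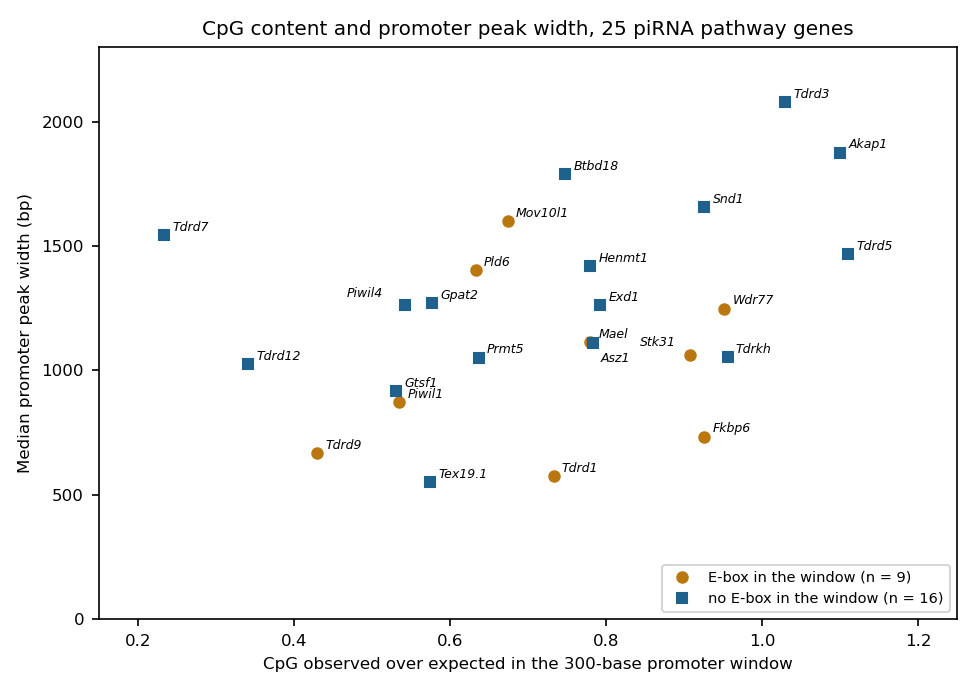
Observed over expected CpG in the 300-base promoter window (horizontal axis) and median promoter peak width in bp (vertical axis) for 25 piRNA pathway genes. Circles are the 9 genes with an E-box in the window and squares the 16 without, and Tdrd3 and Akap1 lie at the upper right while Tex19.1, Tdrd1 and Tdrd9 lie at the bottom. The promoter peak of Fkbp6 does not cover its window.

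The windows were searched for 5 short motifs on both strands. The E-box CACGTG, the site of several basic helix-loop-helix factors, lay in 9 of the 25 windows (36.0%), against 7.91% of all 17492 windows and 10.5% of those under a peak in all 6 libraries. CCAAT, the NF-Y site, lay in 11 of 25 windows (44.0%) against 39.2% of all windows. The MYB core AACNG lay in 19 of 25 (76.0%) against 79.2% of all windows. The CRE site TGACGTCA and the E2F site TTTCCCGC lay in none of the 25 windows, against 2.33% and 1.46% of all windows. Each motif was searched on its own, so that matches of different motifs may overlap, and CACGTG reads the same on both strands. The E-box was singled out after its count was seen, and a match is a description of letters only.

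The E-box stretches are shown because 9 of the 25 windows held this motif. It is not all that they share, since the same 9 windows also held the MYB core AACNG. Each line gives up to 20 bases on either side of the motif on the strand of the gene, with the motif in capitals. Positions count from the start site as 0, with upstream bases negative.
Fkbp6, at -101, chr5:135350120-135350165, minus strand: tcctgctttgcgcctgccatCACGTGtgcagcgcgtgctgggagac
Fkbp6, at -37, chr5:135350056-135350101, minus strand: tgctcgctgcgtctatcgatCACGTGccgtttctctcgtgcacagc
Mael, at -223, chr1:166238942-166238987, minus strand: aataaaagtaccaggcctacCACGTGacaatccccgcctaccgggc
Mov10l1, at -246, chr15:88982744-88982773, plus strand: ccttCACGTGctaaccgccaacctctcgtg
Piwil1, at -179, chr5:128736047-128736092, plus strand: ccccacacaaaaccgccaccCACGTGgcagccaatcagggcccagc
Piwil1, at -154, chr5:128736072-128736117, plus strand: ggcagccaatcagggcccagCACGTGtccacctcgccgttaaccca
Pld6, at -33, chr11:59787665-59787710, minus strand: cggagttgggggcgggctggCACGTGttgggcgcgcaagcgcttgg
Stk31, at -55, chr6:49395464-49395509, plus strand: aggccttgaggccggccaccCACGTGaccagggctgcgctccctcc
Tdrd1, at -11, chr19:56826178-56826223, plus strand: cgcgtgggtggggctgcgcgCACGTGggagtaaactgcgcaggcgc
Tdrd9, at -165, chr12:111971374-111971419, plus strand: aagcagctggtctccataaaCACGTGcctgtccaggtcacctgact
Tdrd9, at -95, chr12:111971444-111971489, plus strand: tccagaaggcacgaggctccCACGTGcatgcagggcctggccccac
Wdr77, at 9, chr3:105959487-105959532, plus strand: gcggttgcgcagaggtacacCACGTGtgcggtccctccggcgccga

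A peak lay over the motif in all 6 libraries at each of these E-boxes except the Tdrd9 site at -165, which a peak covered in 5 libraries. For Fkbp6 the window belongs to a start 1765 bp inside the gene, and the peak over it was not the promoter peak as defined here. The 9 genes with an E-box had a median promoter peak width of 1062.5 bp and a median rank of 19.3%. The 16 without had 1265.5 bp and 10.1%, and both sets spanned most of the pathway's range, from 574 to 1601 bp and from 551 to 2077 bp. Over all genes the median widths were 1418 bp with and 1414 bp without the motif, and the median ranks 6.71% and 7.27%, which is the opposite order to that in the pathway.

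Among the PIWI proteins, which carry the piRNA, each gene had its own layout. Piwil1 encodes the protein of the meiotic wave, and its peak was 936, 991 and 875 bp wide in S7KO replicates 1, 2 and 4 and 805, 859 and 873 bp in WT replicates 1, 2 and 4. Every S7KO width lay above every WT width, though the lowest S7KO value of 875 bp and the highest WT value of 873 bp were nearly equal. Piwil1 ranked between 28.5% and 40.2% of its list. Piwil4, which acts in the nucleus of fetal germ cells, had a peak of 971 to 1620 bp that ranked between 15.3% and 25.7%, and its widths overlapped between genotypes. Piwil4 also held 4 to 5 peaks over its length, among them a peak 9076 to 10008 bp from the 5′ end that was called in every library.

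Piwil2, whose protein is present in spermatogonia and cuts transposon transcripts, had no peak at its outermost RefSeq 5′ end (chr14:70372477-70436898, minus strand). Peaks of 201 bp in S7KO replicate 4 and 342 bp in WT replicate 4 lay upstream, within -1214 to -873 bp of the 5′ end, and ranked at 93.7% and 92.3%, near the bottom of the lists. A strong peak lay 7034 to 8277 bp inside the gene in all 6 libraries. It was 1244, 1236 and 1190 bp wide in the S7KO replicates and 1176, 1108 and 1142 bp in the WT replicates, and it ranked between 3.87% and 7.86%. This inner peak fell outside the fit across genes, and its widths were not compared between genotypes. RefSeq gives Piwil2 a length of 64422 bp, and GENCODE, on another build, gives 57468 bp, which is 6954 bp less. No RefSeq start of this gene was in the promoter table, so whether a start lies under the inner peak was not tested.

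Tdrd6, which encodes a scaffold of the chromatoid body of spermatids, showed a smaller shift of the same kind. Its peak began 889 to 918 bp inside the gene in the S7KO replicates and was 2141, 2090 and 2146 bp wide in the S7KO replicates. In WT it was 2259 bp in replicate 1 and 2264 bp in replicate 4, while in replicate 2 it was 1931 bp wide and began 1019 bp from the 5′ end, just beyond the 1 kb limit. The peak of Tdrd6 was therefore called in WT replicate 2 as in the other libraries, and only its edge fell outside the window.

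**Figure D3:**
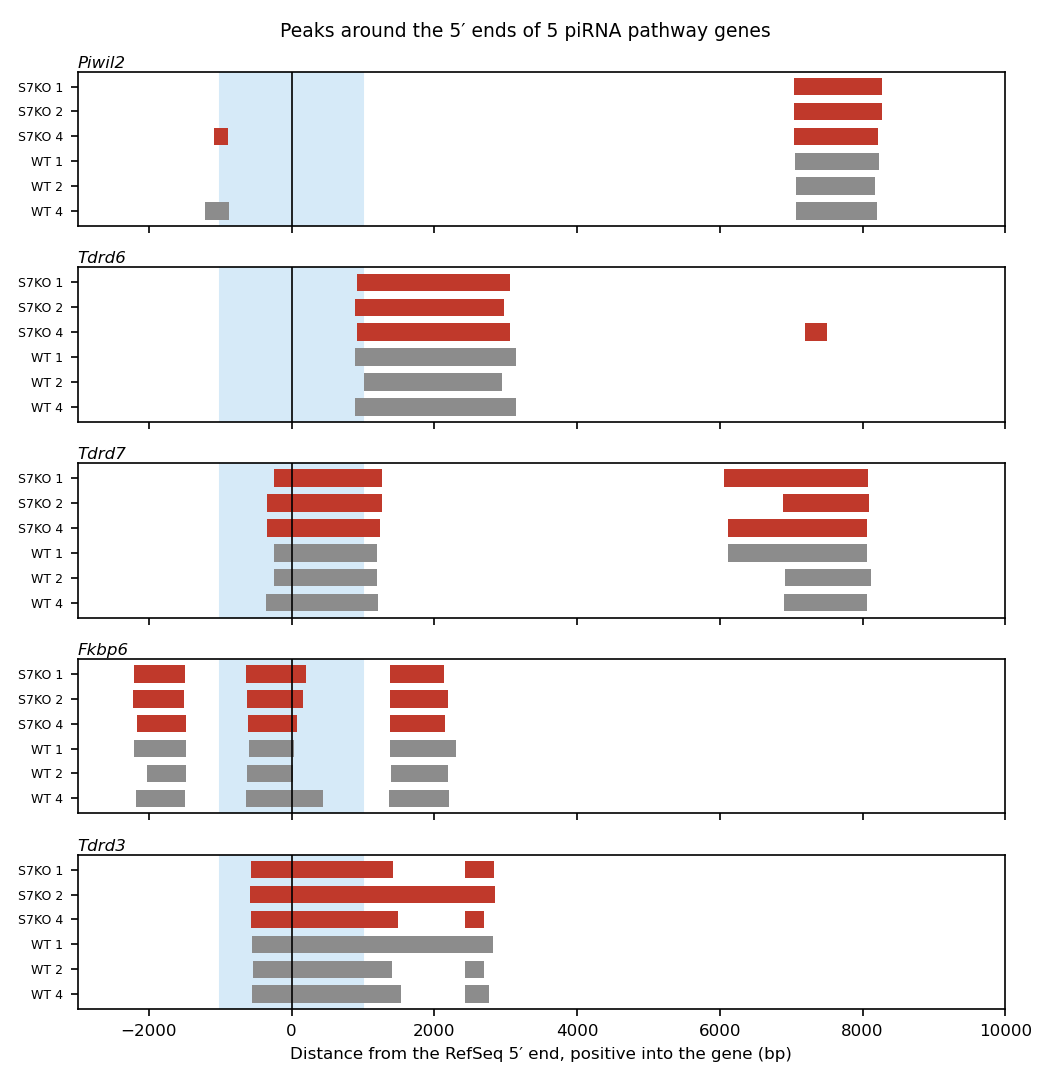
Peaks (bars) of each library around the RefSeq 5′ end (vertical line) of 5 piRNA pathway genes, with distance in bp on the horizontal axis, S7KO libraries in red and WT libraries in grey, and the 1 kb window shaded. Piwil2 has its peak from 7034 to 8277 bp inside the gene in every library, Tdrd6 has it at the window's edge, Tdrd7 has an inner peak besides the promoter peak, and Fkbp6 has 3 separate peaks.

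Tudor genes had promoter peaks with median widths of 574 to 2146 bp. Their proteins bind methylated arginines of PIWI proteins or lie beside them in germ granules. At the strong end, Snd1, which is expressed in most tissues, ranked between 0.205% and 0.473%, and Tdrkh, a mitochondrial partner in trimming piRNA ends, between 0.572% and 1.88%. At the weak end, Tdrd9, a helicase that works with Piwil4, ranked between 39.3% and 68.0%, and Tdrd1, a partner of Piwil2, between 27.0% and 54.2%. Tdrd9 peaks were 581, 984 and 560 bp wide in the S7KO replicates and 893, 649 and 683 bp in the WT replicates. Those of Tdrd1 were 585, 574 and 446 bp against 650, 494 and 574 bp, and for both genes the genotypes overlapped.

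Tdrd3, a reader of methylated arginines found in many tissues, had peaks that came in either of 2 forms. They were 1992, 3432 and 2063 bp wide in the S7KO replicates and 3376, 1942 and 2091 bp in the WT replicates. In S7KO replicate 2 and WT replicate 1 the promoter peak ran on to 2851 and 2815 bp inside the gene. In the other 4 libraries a separate peak of 265 to 415 bp began 2427 to 2431 bp inside. The wide form was thus a joining of neighbouring peaks and appeared once in each genotype.

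Tdrd7, a component of germ granules, had its strongest peak inside the gene. The promoter peak ranked between 24.2% and 33.7%, and an inner peak 6060 to 8121 bp from the 5′ end ranked between 1.95% and 4.09% in every library. The inner peak held the gene's other 2 RefSeq starts, 7270 and 7804 bp inside. The windows of the outer start and of the first inner start are shown with CpG in capitals, 4 in the outer and 32 in the inner one, because the peaks follow the same order.
Tdrd7 outer start, chr4:45965085-45965384, plus strand: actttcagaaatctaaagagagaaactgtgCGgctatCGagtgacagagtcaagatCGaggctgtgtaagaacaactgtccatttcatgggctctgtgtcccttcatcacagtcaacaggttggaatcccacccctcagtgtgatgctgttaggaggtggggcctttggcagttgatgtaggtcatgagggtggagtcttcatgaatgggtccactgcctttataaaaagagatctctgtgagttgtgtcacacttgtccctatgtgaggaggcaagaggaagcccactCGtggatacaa
Tdrd7 inner start, chr4:45972047-45972346, plus strand: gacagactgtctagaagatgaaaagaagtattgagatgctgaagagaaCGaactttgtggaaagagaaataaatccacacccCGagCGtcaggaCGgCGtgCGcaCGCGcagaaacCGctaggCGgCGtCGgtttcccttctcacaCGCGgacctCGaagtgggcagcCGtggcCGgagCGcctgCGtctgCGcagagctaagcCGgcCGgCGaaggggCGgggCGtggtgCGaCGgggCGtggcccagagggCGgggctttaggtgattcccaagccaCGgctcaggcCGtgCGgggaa

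The ratio of observed to expected CpG was 0.234 at the outer and 1.11 at the inner start. Of the 25 genes in the promoter table, 8 had more than 1 RefSeq start, and 33 of the 36 starts lay under a peak in all 6 libraries. The 3 others, inner starts of Akap1 and Tdrd1, lay under no peak in any library. Tdrd5, which acts on piRNAs of the meiotic wave, had a further inner peak 18581 to 19599 bp from its 5′ end that ranked between 2.65% and 6.92%, above its promoter peak at 9.86% to 20.7%. No RefSeq start of Tdrd5 lay under it, and no other protein-coding 5′ end lay within 1 kb of it. The remaining Tudor genes kept to the middle. Rnf17 and Stk31 ranked at medians of 6.74% and 9.0%, Tdrd12 at 7.18% and Akap1, a mitochondrial anchor protein, at 3.37%.

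Biogenesis genes had promoter peaks in every library in all 10 cases, with median widths of 733.5 to 1601 bp. Exd1, whose protein binds Tdrd12, had the strongest, at 0.551% to 1.0%, with widths of 1202 to 1311 bp. Pld6, the enzyme that cuts piRNA precursors, ranked at a median of 5.11%, Pnldc1, which trims piRNA 3′ ends, at 6.37% and Henmt1, which methylates those ends, at 9.35%. Gpat2 and Asz1, mitochondrial proteins of piRNA production, ranked at medians of 10.9% and 12.4%. Mael, a germ granule protein, ranked at 12.4%, and Mov10l1, the helicase that binds piRNA precursors, at 19.3%. Gtsf1, a cofactor of PIWI proteins, ranked between 10.6% and 17.9%. Fkbp6, a co-chaperone of PIWI loading, was the weakest at 40.1%.

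Fkbp6 had 3 separate peaks in every library, over the outermost 5′ end, between 1364 and 2300 bp inside over its other RefSeq starts, and from position -2218 to -1477 upstream. The 5′ end of Trim50, on the opposite strand, lies 75 bp from that of Fkbp6. Opposite-strand neighbours within 1 kb were found for 5 of the 33 genes, against 10.9% of all genes, and the others were Exd1 with Chp1 at 80 bp, Btbd18 with Ctnnd1 at 95 bp, Mov10l1 with Mlc1 at 198 bp and Wdr77 with Atp5pb at 235 bp. A peak over such a pair cannot be assigned to either gene.

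Nuclear silencing genes had peaks of moderate rank. Spocd1 and Tex15, both needed for piRNA-guided DNA methylation, ranked at medians of 10.9% and 16.5%, with median widths of 1120.5 and 1793 bp. Tex19.1, a germ cell gene, was grouped here for its link to transposon control. It had the narrowest promoter peak of the 31, with widths of 665, 427 and 760 bp in the S7KO replicates and 437, 373 and 702 bp in the WT replicates. Morc1, needed to repress transposons in male germ cells, ranked at a median of 35.6%.

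Both transcription regulators had wide peaks. Mybl1, which drives transcription of the meiotic piRNA loci, had widths of 1914, 1919 and 1887 bp in the S7KO replicates and 1884, 1872 and 1856 bp in the WT replicates and ranked at a median of 6.51%. Btbd18, which promotes elongation at those loci, had widths of 1758 to 1843 bp and ranked at 31.8%. Prmt5 and Wdr77 form the enzyme complex that methylates arginines of PIWI proteins and of many other proteins. Prmt5 had the strongest promoter peak of the pathway, between 0.0266% and 0.129% of the list in every library, and Wdr77 ranked between 0.252% and 0.805%.

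**Figure D4:**
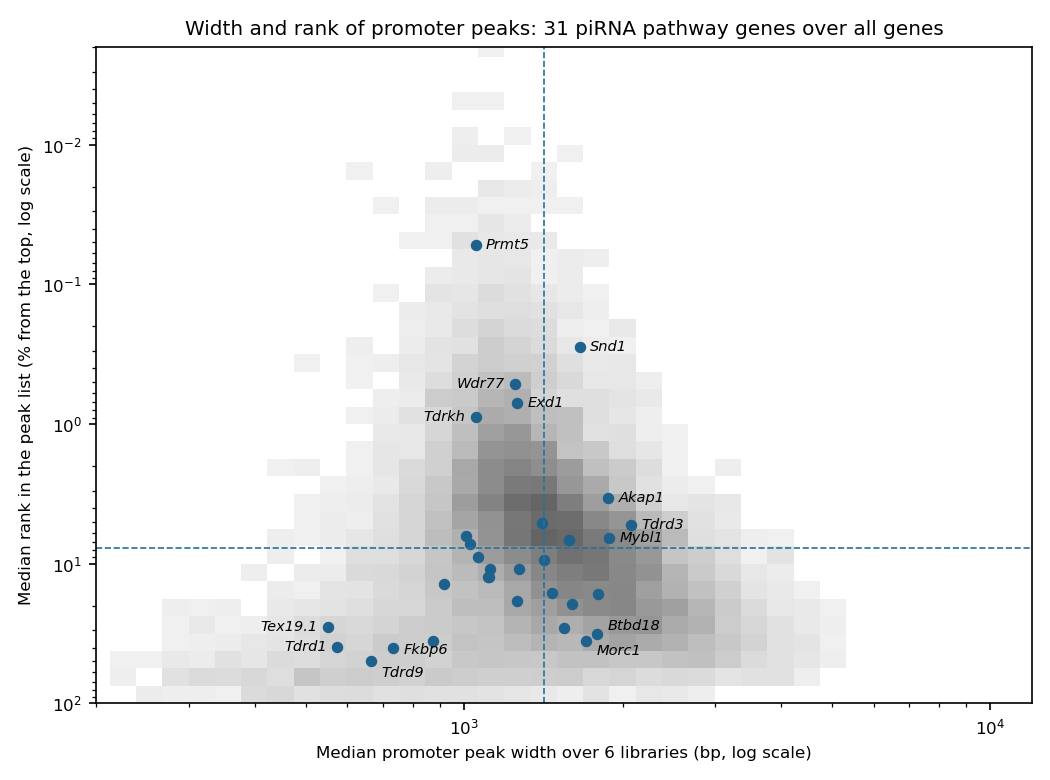
Median promoter peak width in bp (horizontal, log scale) and median rank in the list in percent from the top (vertical, log scale, strong peaks upward) of 31 piRNA pathway genes (points) over the density of all 14630 genes (grey), with dashed lines at the medians of all genes. Prmt5, Snd1, Wdr77, Exd1 and Tdrkh lie near the top, and Tex19.1, Tdrd1, Tdrd9 and Fkbp6 at the lower left.

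To ask whether loss of SIRT7 altered the width of accessible promoters, log2 widths were fitted with limma across all 14630 genes with a peak in all 6 libraries. None of the 31 pathway genes had an adjusted p under 0.05 (limma, Benjamini-Hochberg), and 14 genes of the whole table did (0.0957%). At an unadjusted p under 0.05 there were 2 pathway genes, Morc1 and Wdr77, where 3.27% of all genes reached that level. The adjusted p of every pathway gene was 0.97 or above. The point estimates of the fit, for which each library was centred on its median over genes, were below 0 for 21 of the 31 genes and above 0 for 10. Without centring the split was 13 below and 18 above, so the balance of directions depended on this scaling. No share of all fitted genes is given for either split, so these counts are not set against a background. The medians were -0.03 on the log2 scale for the pathway and -0.01 for all genes fitted.

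**Figure D5:**
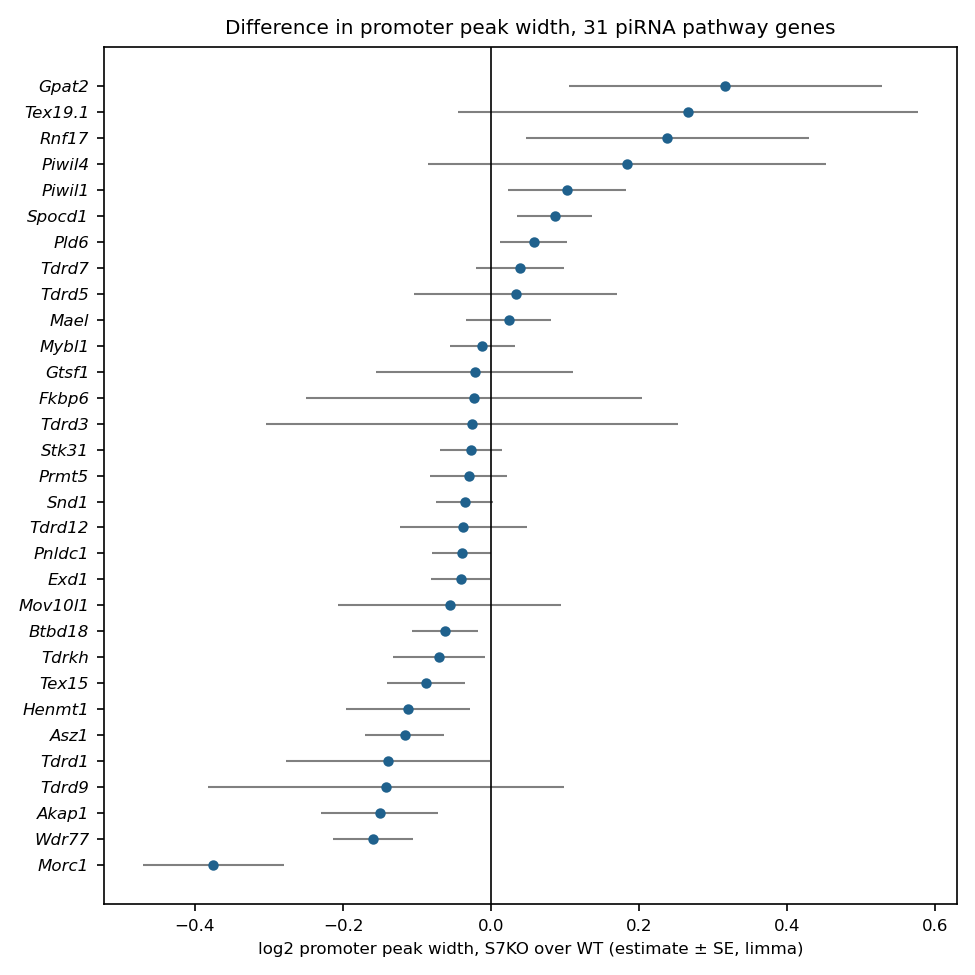
Fitted log2 difference in promoter peak width between S7KO and WT (points) with its SE (bars) for 31 piRNA pathway genes. Morc1 lies lowest at -0.38, Gpat2 highest at 0.32, and the adjusted p was 0.97 or above for all.

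Morc1 (chr16:48431237-48630905) had the smallest p. Its widths were 1366, 1345 and 1674 bp in S7KO replicates 1, 2 and 4 and 1876, 1733 and 1902 bp in WT replicates 1, 2 and 4, so that every S7KO peak was narrower than every WT peak. The means were 1461.7 ± 184 bp and 1837 ± 91 bp (SD, n = 3 each). The fitted difference was -0.38 ± 0.0953 (SE) on the log2 scale, with an unadjusted p of 0.00823 and an adjusted p of 0.97 (limma). The exact two-sided permutation p was 0.1, the smallest that 20 assignments of 3 and 3 libraries can give. Without S7KO replicate 4, whose width was nearest to WT, the difference was -0.48 with an adjusted p of 0.0439 (limma), and over all the alternatives its adjusted p ran from 0.0439 to 0.999. The Morc1 peak nevertheless ranked nearer the top of the list in each S7KO library, at 29.8%, 28.7% and 35.6%, than in any WT library, at 35.7%, 36.1% and 42.5%.

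Wdr77 widths were 1198, 1214 and 1182 bp in the S7KO replicates and 1283, 1320 and 1302 bp in the WT replicates. The genotypes did not overlap, the difference was -0.16 ± 0.0538 (SE) on the log2 scale and the adjusted p was 0.97 (limma), with an exact permutation p of 0.1. Asz1 widths were 1126, 1110 and 1026 bp against 1243, 1091 and 1110 bp, and those of Akap1 were 1820, 1931 and 1556 bp against 2004, 1775 and 1937 bp. Tex15 widths were 1769, 1662 and 1812 bp against 1832, 1789 and 1797 bp. These 3 genes had fitted differences of -0.12, -0.15 and -0.09, and their libraries overlapped. Of the 6 genes with the smallest p, Spocd1 had the only positive difference, 0.09, from widths of 1120, 1238 and 1124 bp in the S7KO replicates and 1121, 997 and 1075 bp in the WT replicates, of which the first S7KO and the first WT value cross.

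Counted by library alone, 3 of the 31 genes had all S7KO widths above all WT widths, as did 6.86% of all genes. They were Mybl1, Mael and Piwil1. The Mael widths were 1215, 1123 and 1120 bp against 1106, 1109 and 1092 bp. For Mybl1 the estimate turned to -0.01 in the fit with centred libraries. 2 genes, Morc1 and Wdr77, had all S7KO widths below, as did 1.63% of all genes. By rank, 4 of the 31 genes lay nearer the top in every S7KO list than in any WT list, as did 5.11% of all genes, and none lay farther from it, as did 1.23%. The 4 were Morc1, Pnldc1, Fkbp6 and Snd1. Fkbp6 ranked at 38.6%, 38.1% and 38.7% in the S7KO replicates and at 57.8%, 43.6% and 41.4% in the WT replicates. Ranks also move with the length of each list, and the part of list length in these orders was not tested.

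Median widths over the pathway's genes were 1308, 1226 and 1258 bp in S7KO replicates 1, 2 and 4 and 1274.5, 1109 and 1178 bp in the WT replicates. The means of these were 1264 ± 41.3 bp and 1187.2 ± 83.1 bp (SD, n = 3 each), and the difference of 76.8 bp lay above the SD of the S7KO values and below that of the WT values. It was 37.8 bp without WT replicate 2 and 120 bp without WT replicate 1. Over all genes the medians were 1420 ± 11.4 bp and 1387.3 ± 64.7 bp (SD, n = 3 each). The lowest value of either set was that of WT replicate 2, which also had the fewest peaks.

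Peaks within the gene bodies were fewest in the shortest list and most numerous in the longest. The 33 genes together overlapped 115, 130 and 127 peaks in the S7KO replicates and 117, 104 and 139 in the WT replicates. That is 0.51 to 0.682 peaks per 10 kb of gene, against 0.582 to 0.726 over all genes. Snd1, which spans 454826 bp, gave 31 to 46 of them, and without it the sums were 80, 88 and 88 against 79, 73 and 93. By density the leading genes were Tex19.1, Pld6 and Henmt1, with medians of 4.6, 2.66 and 1.73 peaks per 10 kb. Tex19.1 and Pld6 are short in RefSeq, so that 1 peak makes this value, whereas Henmt1 held 6 to 8 peaks over 40432 bp. These densities rest on the RefSeq spans. GENCODE, on another build, gives Pld6 22428 bp against 3765 bp in RefSeq, and Henmt1 21039 bp. No gene of the pathway had counts that kept the genotypes apart in either direction. Of all genes with a gene body peak, 0.972% had all S7KO counts above the WT counts and 0.127% below.

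Touching or overlapping peaks were joined across libraries into regions. From 3 kb before to 3 kb after the 33 genes there were 182 regions. 96 of these (52.7%) held a peak of every library, against 57.1% of all 158725 regions. At these genes, no region had peaks of 3 S7KO and 0 WT libraries or the reverse. Of all regions, 0.416% were called in all 3 S7KO libraries alone and 0.0743% in all 3 WT libraries alone. These are 661 and 118 regions, and with an equal number of peaks taken from every list they were 310 and 267, with 0 at the pathway's genes in either case. Without WT replicate 2, the shortest list, they were 929 and 796. 4 of the 182 regions at the genes were called in 3 S7KO libraries and 1 WT library, and none showed the opposite pattern. Of these 4, 1 lay beside Tdrd6, 1 in Tex15 and 2 in Snd1. Of all 158725 regions, 4164 were called in 3 S7KO libraries and at most 1 WT library, which includes the 661 above. In the opposite direction there were 770, which includes the 118. A lean to S7KO was thus present over all regions. Inside the genes and more than 1500 bp from the 5′ end, 53 regions were called in all 6 libraries, in 17 genes, and 24 of them lay in Snd1. The Snd1 region 350845 to 353751 bp from the 5′ end lay within 1 kb of the 5′ end of another gene, Lrrc4. Only the inner regions of Piwil2, Tdrd5 and Tdrd7 ranked in the top 10% of every list.

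Other genes tied to the pathway were read in the same way. Of 12 such genes, 10 had a promoter peak in all 6 libraries and 2, Dnmt3a and Nanos2, had none in any at their outermost RefSeq 5′ end. Ddx4, the helicase of germ granules, had a median width of 1244 bp and a median rank of 15.4%. Dnmt3l, the cofactor of de novo DNA methylation, had 1316.5 bp and 17.8%, and Mov10, the broadly expressed relative of Mov10l1, had 2552.5 bp and 7.56%. Tcfl5, a transcription factor of meiotic germ cells, had 1826.5 bp and 16.5%. Nanos3, an RNA-binding protein of germ cells, had a narrow peak of 389 bp that ranked at 70.6%. Over the 10 genes with a peak the median width was 1351 bp, against 1261 bp for the 31 pathway genes and 1420.5 bp for all genes.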

How the data were processed

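The authors trimmed reads with Trim Galore 0.6.6, aligned them to mm10 with Bowtie2 2.4.4.1, filtered them for mapping quality with SAMtools 1.19.2 and for unique, non-duplicate reads with Sambamba, removed mitochondrial reads, shifted Tn5 ends, filtered fragments by length and called broad peaks per library with MACS2 2.2.5 at a cutoff of 0.1. Whether the deposited calls used nucleosome-free fragments was not settled by the sources. The deposited peak lists, which have no header line and follow the caller's broad peak layout, hold a display score, a fold enrichment (ratio over background), the −log10 p-value and the −log10 q-value per peak. They hold no counts, so the authors' DiffBind test was not repeated.

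Peaks on chromosomes 1 to 19, X and Y were set against RefSeq gene ends of GRCm38.p6. The strand came from the promoter table for 17492 genes and from GENCODE for 3976, which placed 98.1% of 21887 protein-coding genes. Coordinates beyond the GRCm39 length of chromosome 1 (195242313 against 195154279) showed that the lists were not on GRCm39, and mm10 is the build the study gives. Log2 promoter peak widths, centred on each library's median, were fitted with limma 3.58.1 in R 4.3.3 (variance trend, Benjamini-Hochberg over 14630 genes, threshold 0.05), after tests on simulated data. Single genes had an exact two-sided permutation test over 20 assignments. The study describes its ATAC-seq replicates as independent biological ones, while the labels do not tie libraries to animals, so p-values measure the spread between these samples.

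The genes and lists were chosen with earlier results of these data known. Named individually were the 6 genes with the smallest p, the 3 widest and narrowest peaks, genes lacking a promoter peak in at least 1 library and the 3 with most gene body peaks per 10 kb, with role and motif descriptions besides.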

Additional observations from a re-analysis of the deposited data

How the results depend on the processing

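The S7KO minus WT differences in the number of genes with a promoter peak within 1 kb or 3 kb, in gene body peaks and in the median width moved by less than the larger of both genotypes' SDs under all 11, 9, 12 and 12 alternatives run for them. The gene body difference, 4 peaks as reported, ran from -7 to 13.5, and the width difference, 76.8 bp as reported, from 37.8 to 120 bp. The number of pathway genes whose widths did not overlap between genotypes, 5 as reported, was 16 with replicates 1 and 4 only and 7 to 9 when 1 library was left out, where fewer libraries make a gap easier. No share of all genes is given for these settings, so these counts are not set against a background. Genotype-specific regions at these genes, 0 as reported, numbered 1 with replicates 1 and 4 only and 0 to 5 when 1 library was left out. The 5 came without WT replicate 4, with 4 in S7KO and 1 in WT. Over all regions that setting gave 2861 in S7KO and 254 in WT. Replicates 1 and 4 only gave 1855 and 1580 over all regions. Of all genes, 14 were called for width (limma), and 12 to 49 when 1 library was left out, with 49, 45, 28 and 22 without S7KO replicate 4 and WT replicates 1, 4 and 2. Pathway genes called numbered 0 to 1 in those fits, and the 1 was Morc1 without S7KO replicate 4 (log2 difference -0.48, adjusted p 0.0439 by limma). The causes of these shifts were not tested. With a replicate block 1 gene of the table and 0 pathway genes were called. Deviations of same-numbered libraries correlated at 0.0627, -0.0295 and 0.0948 for numbers 1, 2 and 4, so the numbers were not taken as pairs. A second label gives other numbers, which join the same libraries across genotypes. The log2 differences of the 6 genes named from the fit kept their sign under all 18 alternatives, 1 of which, a robust variance, was added after the data were seen. Also added then was the use of any RefSeq start in place of the outermost 5′ end. The 6 genes were chosen for the smallest p in the same fit, and the alternatives reuse its libraries. Their kept sign is therefore no independent check. Peak lists without read counts limit all comparisons to position, width and rank.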
